A study of Mus musculus with 2 samples.

Results

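The miR-146 and miR-155 families and the miR-132 and miR-212 pair are microRNAs (miRNAs) known for their induction by inflammatory signals, and 8 of the 831 entries of the array belonged to them. An entry was taken as a member when its name, or any of several names joined in it, had the whole stem mmu-miR-146a, mmu-miR-146b, mmu-miR-155, mmu-miR-132 or mmu-miR-212, with either arm. The rule uses names and no measured value, although it was written with earlier results of these data known. The 8 entries were mmu-miR-146a-5p (miR-146a-5p in the following, and likewise for the others), miR-146a-3p, miR-146b-5p, mmu-miR-155-5p, miR-155-3p, miR-132-5p, miR-132-3p and miR-212-3p, and each carried a single name.

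The RNA came from microvesicles (MVs), the small membrane vesicles that cells release, which were pelleted by ultracentrifugation from the supernatant of bone marrow mesenchymal stem cells (MSCs). The cells were primary cultures from 4-week-old male C57BL/6 mice at passage 3, grown in DMEM/F12 with fetal bovine serum for 48 h. MVs of cells given 100 IU/ml erythropoietin (EPO), the hormone of red cell formation, are called EPO-MVs, and MVs of cells grown without it are called MSC-MVs. The labels name no inflammatory stimulus for either culture. With 1 array of EPO-MVs and 1 array of MSC-MVs, no difference had a replicate check and no test was run. EPO and the array on which a sample was hybridized cannot be told apart.

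A miRNA is cut from a hairpin precursor whose -5p and -3p arms can each become a mature strand, and the bases near its 5′ end, the seed, pair with the messenger RNAs that it represses. Transcription of miR-146a and miR-155 is switched on by NF-κB, a transcription factor of the inflammatory response. In that response miR-146a and miR-146b act as brakes through the adaptors Traf6 and Irak1, whereas miR-155 favours inflammation by repressing inhibitors of signalling such as Socs1 and Inpp5d. The pair miR-132 and miR-212 is made from a common transcript that responds to the transcription factor CREB, in neurons above all, and has also been described in immune cells. These roles are background and were not measured here.

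The mature sequences of the 8 measured strands are shown, with the seed (bases 2 to 8) in capitals, because the families are defined by it. They were matched by name in RefSeq (mouse assembly GRCm38.p6).
miR-146a-5p: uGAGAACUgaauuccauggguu
miR-146b-5p: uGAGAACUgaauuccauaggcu
miR-146a-3p: cCUGUGAAauucaguucuucag
miR-155-5p: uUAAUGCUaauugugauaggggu
miR-155-3p: cUCCUACCuguuagcauuaac
miR-132-3p: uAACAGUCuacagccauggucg
miR-212-3p: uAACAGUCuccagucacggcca
miR-132-5p: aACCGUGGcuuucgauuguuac

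The 8 strands held 6 different seeds. The seed GAGAACU was shared by miR-146a-5p and miR-146b-5p, and AACAGUC was shared by miR-132-3p and miR-212-3p. No other entry among the 680 of 831 (81.8%) that matched a RefSeq mature sequence by name carried any of the 6 seeds. The first pair differed at 2 of 22 positions, counted from 1 at the 5′ end, namely G18A and U21C from miR-146a-5p to miR-146b-5p. The other pair differed at 5 of 22 positions, namely A10C, C14U, U17C, U20C and G22A from miR-132-3p to miR-212-3p. How far a capture probe of the array binds the other strand of a pair was not tested.

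The hairpins lie at 4 places in the genome and are shown with both mature arms in capitals, because 3 of them had both arms on the array.
Mir146, chr11:43374397-43374461, minus strand: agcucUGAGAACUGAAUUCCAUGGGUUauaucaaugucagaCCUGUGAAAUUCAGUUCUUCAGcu
Mir146b, chr19:46342762-46342870, plus strand: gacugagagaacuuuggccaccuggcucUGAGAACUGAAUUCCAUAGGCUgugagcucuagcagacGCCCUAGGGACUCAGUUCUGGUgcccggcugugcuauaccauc
Mir155, chr16:84714140-84714204, plus strand: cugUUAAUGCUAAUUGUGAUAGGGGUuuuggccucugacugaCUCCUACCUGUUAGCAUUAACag
Mir212, chr11:75173388-75173478, plus strand: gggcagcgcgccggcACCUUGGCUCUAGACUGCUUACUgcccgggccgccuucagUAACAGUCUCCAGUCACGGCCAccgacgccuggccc
Mir132, chr11:75173682-75173747, plus strand: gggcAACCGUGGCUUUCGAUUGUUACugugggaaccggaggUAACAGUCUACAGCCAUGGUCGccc

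In this annotation Mir155 overlaps the non-coding gene Mir155hg, its host transcript, and Mir146b overlaps the non-coding gene Gm36493, while Mir146, Mir132 and Mir212 overlap no other listed gene. Mir212 and Mir132 lie on the same strand of chromosome 11 with 203 bases between them. The -3p arm of miR-146b and the -5p arm of miR-212 had no entry in the deposited values.

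The measured quantity is the deposited normalized intensity, on a linear scale, and a ratio is the EPO-MV intensity divided by the MSC-MV intensity. Each intensity is also given in steps, since the deposited values of an array came in whole multiples of a smallest unit. An intensity of 1 equalled 471 steps for EPO-MVs, whereas it equalled 447 for MSC-MVs. Steps show how coarse a dim value is. Probes differ in how well they bind, so the brightness of different entries does not order the amounts of these miRNAs. Over all entries the median intensity was 0.206 for EPO-MVs and 0.195 for MSC-MVs. An entry was counted as passing when it differed at least 1.5-fold in either direction, the fold change that the study used, and this count is a description.

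Of the 8 members, 3 passed 1.5-fold (37.5%), and 211 of all 831 entries did (25.4%). Of the 3, miR-146a-5p and miR-132-3p were lower in EPO-MVs and miR-146a-3p was higher. Both miR-132-3p and miR-146a-3p were read at 5 steps or fewer on each array. Among the 6 members with at least 30 steps on both arrays, miR-146a-5p was the 1 that passed, while 62 of the 573 entries with as many steps passed (10.8%). The median log2 ratio of the 8 members was -0.08, against 0.05 over all entries. By any amount, 5 members were lower in EPO-MVs and 3 were higher, against 365 lower and 466 higher among all entries.

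**Figure D1:**
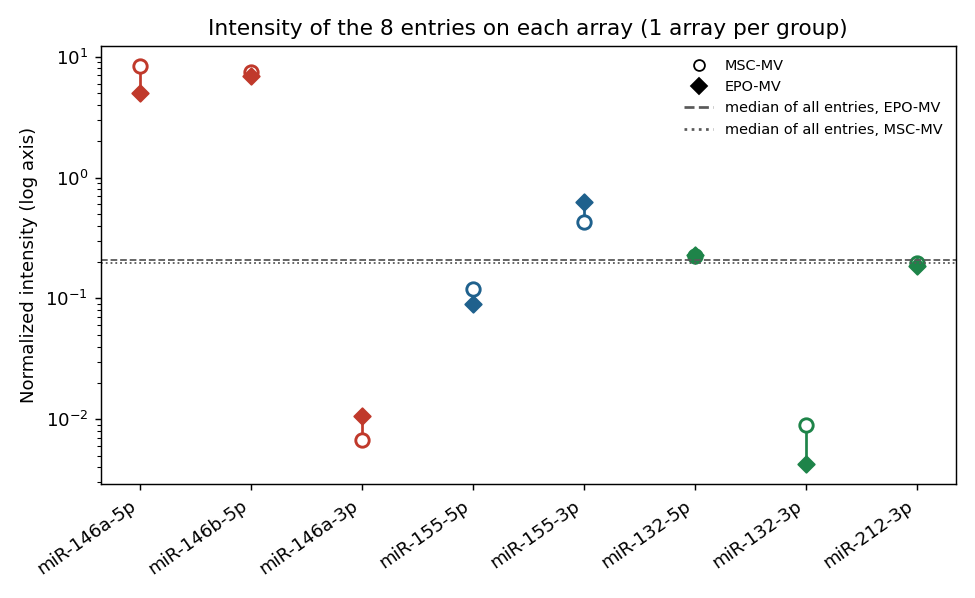
Normalized intensity (log axis) of each of the 8 entries, with MSC-MVs as open circles and EPO-MVs as filled diamonds, 1 array per group and therefore no error bars. Dashed and dotted lines mark the median of all entries on each array, and miR-146a-5p and miR-146b-5p lie well above them while miR-146a-3p and miR-132-3p lie well below.

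The strand that represses Traf6 and Irak1, mmu-miR-146a-5p, had an intensity of 4.96 in EPO-MVs (2338 steps) against 8.40 in MSC-MVs (3757 steps). This was a ratio of 0.591 (log2 ratio -0.76), or 40.9% lower in EPO-MVs. It was among the bright entries, at place 59 of 831 in EPO-MVs and place 39 in MSC-MVs, so that a shift of 1 step on each array would move the ratio between 0.590 and 0.591 only. A ratio at least 1.5-fold lower was found for 63 of the 831 entries (7.58%) and for 16 of the 208 in the brightest of 4 groups of entries cut by mean log2 intensity (7.69%). In that group 5 entries, miR-146a-5p included, had a ratio of 0.591 or less. The other 4, named after their values were seen, were miR-365-3p (0.539), miR-301a-3p (0.553), miR-29a-3p (0.563) and let-7f-5p (0.578).

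The median log2 ratio of this brightest group was -0.09, so that bright entries were in general slightly lower in EPO-MVs. When this trend was removed with a lowess curve, the ratio of miR-146a-5p was 0.655, and with quantile normalization it was 0.645. Over all ways of scaling that were tried, and with a pseudocount, it stayed between 0.570 and 0.655, which is past 1.5-fold in each case. It did not reach 2-fold.

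miR-146b-5p, with the same seed and a different gene on chromosome 19, had an intensity of 6.95 in EPO-MVs (3274 steps) against 7.41 in MSC-MVs (3311 steps). Its ratio was 0.938 (log2 ratio -0.09), within 1.5-fold. This was close to the middle of the brightest group, where 104 of 208 entries had a ratio as low or lower. Under the other scalings its ratio lay between 0.906 and 1.05, with the sign turned under quantile normalization (1.03) and lowess (1.05). The log2 ratios of miR-146a-5p and miR-146b-5p differed by -0.67, which is 1.59-fold between the ratios. No replicate error is available for this difference.

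miR-146a-3p, the opposite arm of the miR-146a hairpin, was near the floor of both arrays, with 5 steps in EPO-MVs against 3 in MSC-MVs. The ratio was 1.58 (log2 ratio 0.66), opposite in direction to that of the -5p arm. A shift of 1 step on each array would place it anywhere from 0.949 to 2.85. Its direction also depended on the scaling, and it was lower in EPO-MVs under lowess (ratio 0.852) and quantile normalization (0.776). In the dimmest group, to which it belongs, 127 of 208 entries passed 1.5-fold (61.1%).

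**Figure D2:**
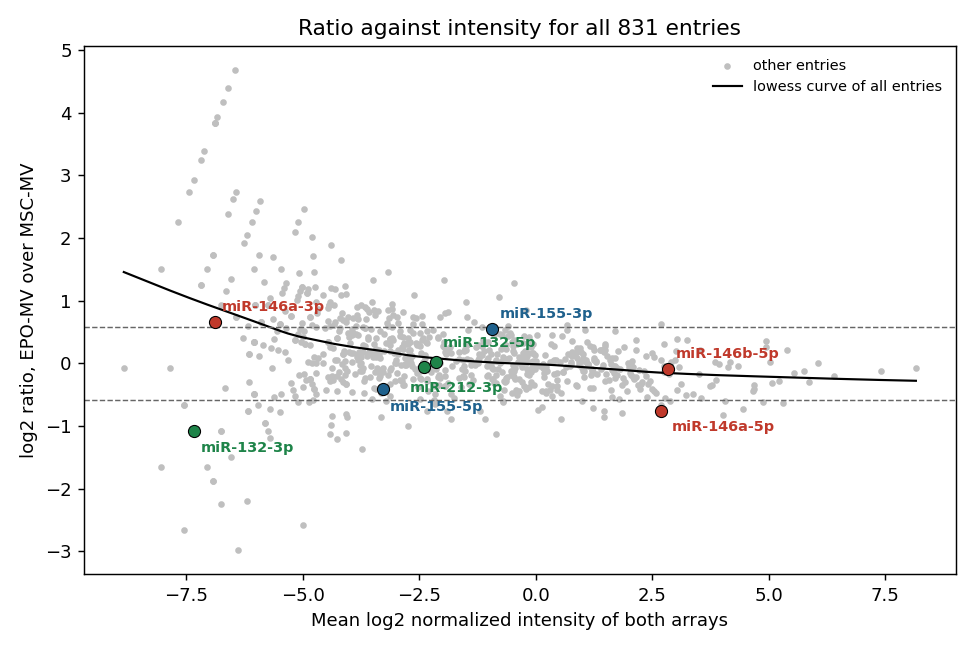
log2 ratio of EPO-MV over MSC-MV intensity against the mean log2 intensity of both arrays for 831 entries, with members coloured by family, a lowess curve through all entries, and dashed lines at 1.5-fold. miR-146a-5p lies below the lower dashed line at the bright end, where the cloud is narrow, and miR-146a-3p and miR-132-3p lie at the dim end, where it is wide.

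The strand of miR-155 usually described as the active one in immune cells, mmu-miR-155-5p, was dim. It had an intensity of 0.0892 in EPO-MVs (42 steps) against 0.119 in MSC-MVs (53 steps), both below the median of their array. The ratio was 0.752 (log2 ratio -0.41), lower in EPO-MVs but within 1.5-fold, and a shift of 1 step on each array would give 0.721 to 0.785. In its group, the next to dimmest, 15 of 208 entries had a ratio as low or lower. The entries of this group tended to be higher in EPO-MVs, with a median log2 ratio of 0.17. With this trend removed miR-155-5p passed 1.5-fold as lower, at 0.658 under lowess and 0.662 under quantile normalization.

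miR-155-3p, the other arm, differed in the opposite direction. It had an intensity of 0.631 in EPO-MVs (297 steps) against 0.432 in MSC-MVs (193 steps), a ratio of 1.46 (log2 ratio 0.55) that lies just inside 1.5-fold. In its group, the next to brightest, 13 of 207 entries had a ratio as high or higher. The ratio ranged from 1.37 under quantile normalization to 1.50 when all ratios were shifted so that the brighter entries had a median of 1, where it passed by a narrow margin. The direction was the same under every scaling tried for both arms of miR-155.

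The log2 ratios of the arms of miR-155 differed by 0.96, or 1.94-fold between the ratios. To place this difference, it was set beside those of all hairpins with a -5p and a -3p entry, a comparison chosen after the values were seen. With at least 30 steps on every reading there were 104 such hairpins, the arms of 45 of them had ratios on opposite sides of 1, and the median absolute difference was 0.27 on the log2 scale. A difference as large as that of miR-155 or larger was found in 4 of them, the others being miR-30b (2.38-fold between the ratios), miR-301a (2.18-fold) and miR-1981 (1.97-fold). The arms of one hairpin share a precursor and an array, and the comparison carries no test.

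**Figure D3:**
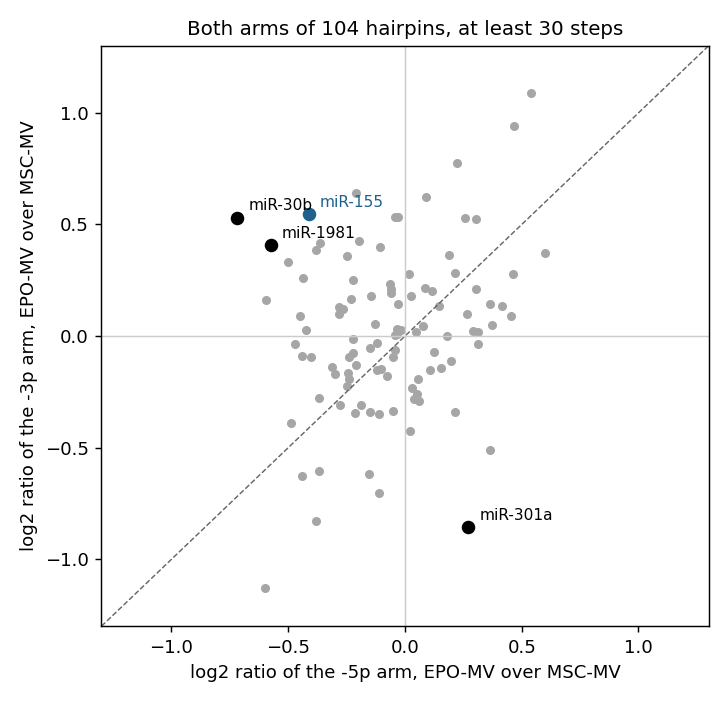
log2 ratio of the -3p arm against that of the -5p arm for 104 hairpins with at least 30 steps for both arms on both arrays, with the dashed line marking equal ratios. miR-155 lies in the upper left, at -0.41 for the -5p arm and 0.55 for the -3p arm, near miR-30b and miR-1981, and miR-301a lies at the opposite side of the line.

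For miR-132 and miR-212, 2 of 3 entries were nearly equal on the arrays. miR-132-5p had an intensity of 0.227 in EPO-MVs (107 steps) against 0.224 in MSC-MVs (100 steps), a ratio of 1.02. miR-212-3p, whose gene lies next to Mir132, had 0.187 (88 steps) and 0.195 (87 steps), a ratio of 0.960. Both lay close to the median intensity of their array. Across the scalings tried, miR-132-5p stayed between 0.961 and 1.04, on either side of 1, and miR-212-3p between 0.897 and 0.986. The log2 ratio of miR-212-3p minus that of miR-132-5p was -0.08.

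miR-132-3p, the strand of the hairpin usually described as active, was at the bottom of both arrays, with 2 steps in EPO-MVs against 4 in MSC-MVs. The ratio was 0.475 (log2 ratio -1.08), and a shift of 1 step on each array would place it anywhere from 0.190 to 0.949. It passed 1.5-fold as lower under each scaling tried, but not with the pseudocount, which gave 0.929. Its seed partner miR-212-3p, read with more steps, was within 1.5-fold.

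**Figure D4:**
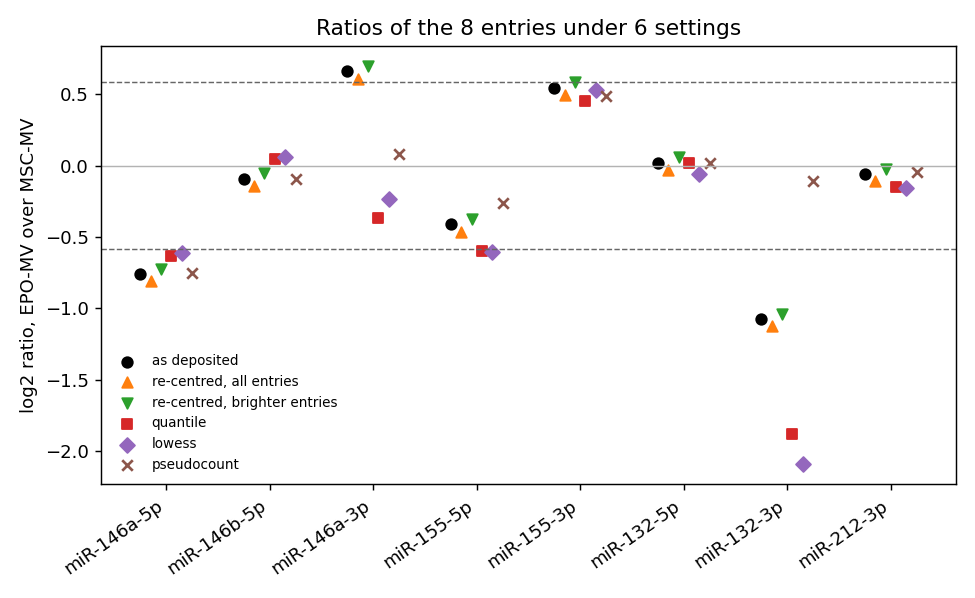
log2 ratio of each entry with the deposited values and under 5 other settings (4 scalings and a pseudocount), with dashed lines at 1.5-fold. miR-146a-5p stays below the lower line under all 6, miR-146b-5p, miR-132-5p and miR-212-3p stay near 0, and the dim miR-146a-3p and miR-132-3p spread over a wide range.

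The entries nearest to the brighter members in both intensities were taken by the distance between the log2 intensities on the 2 arrays. For miR-146a-5p they were miR-34a-5p (ratio 0.629), miR-15b-5p (0.681) and miR-98-5p (0.723). For miR-146b-5p they were miR-199b-5p (0.893), miR-665-3p (1.01) and miR-487b-3p (0.975). For miR-155-3p they were miR-1929-5p (1.36), miR-5108 (1.27) and miR-320-5p (1.16). Since each entry has only 1 value per group, this likeness means a similar brightness and a similar ratio and nothing else.

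Other miRNAs linked to Toll-like receptor or NF-κB signalling gave 26 entries, listed by stem. Of these, 5 passed 1.5-fold (19.2%, against 25.4% of all entries), with 3 lower and 2 higher in EPO-MVs, and their median log2 ratio was -0.12. By any amount 17 were lower and 9 were higher, whereas 365 of all 831 entries and 131 of the 208 in the brightest group were lower. Both that passed as higher, miR-511-5p (20 against 9 steps) and miR-9-5p (30 against 15 steps), were dim. The 7 other entries that were higher lay within 1.5-fold, and 6 of them had at least 60 steps on both arrays. The highest of these, named after their values were seen, were miR-511-3p with 260 and 165 steps (just inside the threshold) and miR-21a-3p with 809 and 571 steps (1.34). The opposite arm of miR-301a-3p, miR-301a-5p, was also among them, with 234 and 184 steps (1.21). The 3 lower ones were miR-301a-3p, which promotes NF-κB activity, with 962 steps in EPO-MVs against 1652 in MSC-MVs (ratio 0.553), miR-223-3p, a myeloid miRNA that restrains inflammation, with 6415 and 9245 steps (0.659), and miR-98-3p, with 21 and 36 steps (0.554). miR-21a-5p, an NF-κB responsive miRNA that was bright on both arrays, had 37150 and 40369 steps (0.873).

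**Figure D5:**
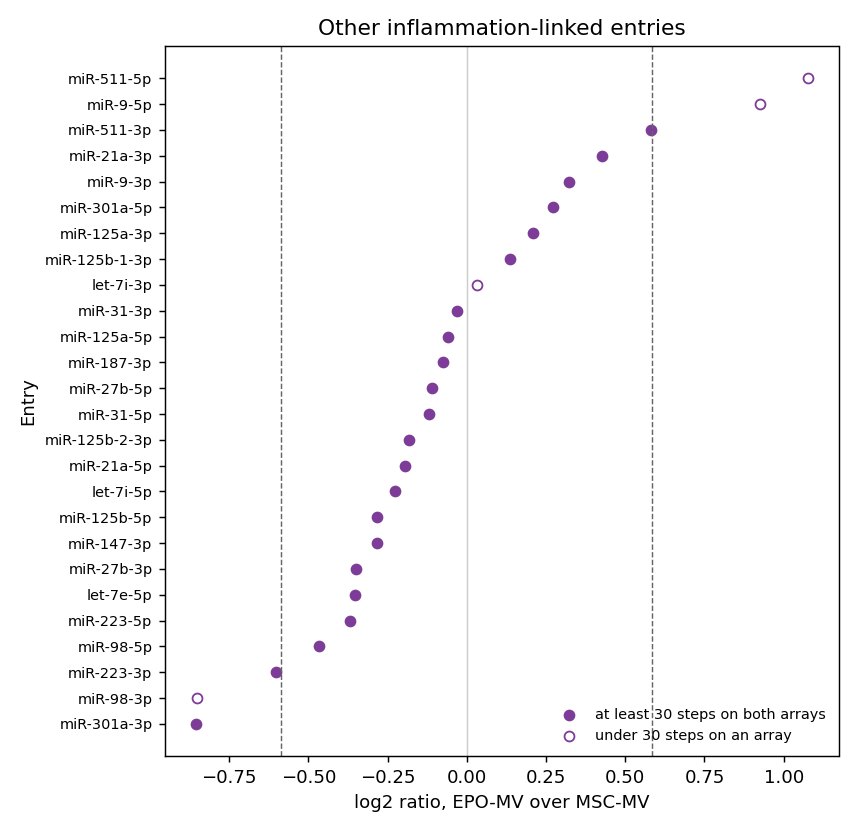
log2 ratio of EPO-MV over MSC-MV intensity for 26 other entries linked to inflammatory signalling, with dashed lines at 1.5-fold and open symbols for entries under 30 steps on an array. Among the filled symbols, miR-301a-3p and miR-223-3p lie beyond the lower line and none lies beyond the upper line.

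The origin of the MVs was checked against marker miRNAs, since miR-146a and miR-155 are also found in blood cells. The entries of miR-21a and miR-223 belong both to a marker list and to the inflammation list. All 11 entries of the stromal list (miR-143, miR-145a, miR-199a, miR-199b, miR-214 and miR-21a) had at least 282 steps on both arrays. They summed to an intensity of 170 in EPO-MVs against 217 in MSC-MVs. Of the 11, 9 were lower in EPO-MVs by any amount, as were 131 of 208 entries in the brightest group and 97 of 207 in the next, to which all 11 belong, and the median log2 ratio was -0.43, beside -0.76 for miR-146a-5p. Of the 8 entries of the blood cell list (miR-142, miR-144, miR-150, miR-223, miR-451a and miR-486), 7 had at least 60 steps on both arrays. Of these miR-142-3p, a marker of blood cells, was bright on both arrays, with 20714 steps in EPO-MVs against 21839 in MSC-MVs (ratio 0.900), its other arm miR-142-5p had 2259 and 2328 steps (0.921), and the erythroid miR-451a had 1821 and 1915 steps (0.902). The lowest ratios of the list were those of miR-223-3p (0.659), its 1 entry past 1.5-fold lower, and miR-223-5p with 93 and 114 steps (0.774). The other 3 entries were higher in EPO-MVs, namely the erythroid miR-144-3p with 160 and 87 steps (1.75, past 1.5-fold), miR-150-5p with 457 and 320 (1.36), and the entry of miR-486-5p, which it shares with miR-3107-5p, with 34 and 24 (1.34). The blood cell list summed to 67.8 in EPO-MVs against 80.3 in MSC-MVs, a drop to which miR-223-3p alone gave 7.06. Of its 8 entries 2 passed 1.5-fold (25%, against 25.4% of all entries). By any amount 5 of the 8 were lower, against 365 of all 831 entries. In the groups that hold them, 131 of 208 (brightest), 97 of 207 (next to brightest) and 70 of 208 (next to dimmest) were lower. The epithelial list (miR-200a, miR-200b, miR-200c, miR-141, miR-429 and the liver miRNA miR-122) had 9 entries of at most 218 steps, of which 3 had at least 30 steps on both arrays. By any amount 7 of the 9 were higher in EPO-MVs, and 5 passed 1.5-fold as higher (55.6%), against 148 of all 831 entries and 96 of the 208 in the dimmest group, which holds 5 of the 9. They summed to 0.996 in EPO-MVs against 0.667 in MSC-MVs, of which miR-122-3p alone gave 0.463 and 0.277. By flow cytometry the cultured cells were described as negative for CD45, a surface protein of blood cells, and the medium held fetal bovine serum, which carries vesicles of its own. The part of MVs from blood cells or serum in the level of miR-146a-5p or miR-155 was not tested, and fewer vesicles of a kind and less of a miRNA per vesicle cannot be told apart in such RNA.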

How the data were processed

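RNA of MVs was labelled by the authors with Hy3, hybridized to the Exiqon miRCURY LNA Array (version 18.0), scanned with an Axon GenePix scanner and read with GenePix Pro 6.0. The authors deposited median-normalized intensity values on a linear scale for 831 entries, with replicate spots averaged and the factor set by miRNAs that reached 30 everywhere. The channel, any background correction and the choice of entries are not given in the sources used here.

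Ratios of EPO-MV to MSC-MV were computed without a filter or pseudocount. With 1 array per group no test was run, and the number of arrays limits the precision. Values were whole steps within 0.0001 of a step. The members, lists and alternatives were chosen with earlier results of these data known. Named were all members, up to 6 entries of the inflammation list, and beside these miR-301a-5p as the opposite arm of miR-301a-3p. Also named were the 3 entries nearest to each of the 3 brightest members, all blood cell markers and the brightest epithelial marker. Entries said to be chosen after their values were seen were named as well. There were 9 alternatives, and at least 60 steps on both arrays was added after seeing the data. The calling rule was checked on simulated arrays. Calculations used Python 3.11.15, pandas 2.3.3, numpy 2.4.6, statsmodels 0.14.6 (lowess span 0.4, 3 iterations) and matplotlib 3.10.9.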

Additional observations from a re-analysis of the deposited data

How the results depend on the processing

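The number of members past 1.5-fold was 3 with the deposited values. It became 1 at a threshold of 2, 5 at a threshold of 1.2, 1 with at least 30 steps on both arrays, 1 with at least 60 steps (added after seeing the data), 1 above the median intensity and 1 with a pseudocount of 0.0573. The member left at a threshold of 2 was miR-132-3p, read at 2 steps in EPO-MVs and 4 in MSC-MVs. Under the filters and with the pseudocount the member left was miR-146a-5p. Of the 26 other inflammation-linked entries 5 passed, and under the same settings in that order 1, 15, 2, 2, 2 and 2 did. Of all 831 entries 211 passed, and in that order 88, 460, 62, 40, 38 and 54 did. Fewer entries are left by the filters, and the pseudocount shrinks dim ratios by construction. Re-centring, quantile normalization and lowess kept each count within 1.5 times its main value. They moved the split of all passing entries from 148 higher and 63 lower to 95 and 95 under quantile normalization and to 92 and 96 under lowess. For the members, 1 higher and 2 lower became 0 higher and 3 lower under both quantile normalization and lowess. There miR-146a-3p no longer passed, and miR-155-5p passed as lower. Re-centring on the brighter entries gave 4 members, 2 higher and 2 lower. The log2 ratio of miR-146a-3p turned from 0.66 to -0.23 under lowess and -0.37 under quantile normalization. Both take out the higher ratios of dim entries by construction, and the lowess curve at this entry was 0.89. The median log2 ratio of the members stayed between -0.26 (quantile normalization) and -0.03 (entries above the median intensity). No paired analysis was possible because each group had 1 array, and for the same reason no array could be left out. The values carry no background reading, so dim members cannot be called above or below it.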
